A study of Saccharomyces cerevisiae with 18 samples.

Results

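In Saccharomyces cerevisiae, 10 genes for mannoproteins of the cell wall were followed across all 18 arrays of a study of ethanol stress. They are PIR1, PIR3, HSP150, CIS3, CWP1, CWP2, TIP1, SED1, PST1 and CCW12, taken by symbol from the probe annotation, and all 10 were found among 5650 genes with a symbol, each with 1 probe. The 6 groups were the mutant CM1, the mutant SM1 and their parent W303-1A, each in medium with 6.5% v/v ethanol and with 0% ethanol. Each group held 3 separate cultures with 1 array each. The series title calls both mutants ethanol tolerant, and the labels give neither their mutations nor how many isolates each name covers. Every culture was hybridised with 2 dyes against 1 pool of RNA from the 3 W303-1A cultures without ethanol. No source used here states when the cultures were sampled.

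The yeast wall is a mesh of glucan and chitin with an outer layer of heavily mannosylated proteins. Most of these proteins, among them Cwp1, Cwp2, Tip1, Sed1, Pst1 and Ccw12, are made with a GPI anchor and are then joined to glucan. The PIR proteins, named for their internal repeats, have no such anchor and are joined to glucan through a bond that mild alkali breaks. Damage to the wall is sensed by the wall integrity pathway, a kinase cascade under Pkc1 and Slt2 that raises many of these genes, PST1, CWP1, PIR3 and HSP150 among them.

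Values are log2 ratios of a culture over the pool, so a value is a level relative to W303-1A without ethanol and not an amount. The 0 of this scale is approximate. On the 3 arrays of W303-1A without ethanol, whose cultures made the pool, the member means ran from -0.35 for TIP1 to 0.60 for SED1. The reason was not tested. The ratio's direction was not stated in the files. All columns were assumed to hold red over green, and the labels give the culture as red on the normal arrays and as green on replicate 1 of every group, the dye-swapped array. After subtraction of the arrays without ethanol, the swapped and the normal arrays were correlated at -0.13 in CM1, -0.33 in SM1 and -0.51 in W303-1A over 5650 genes before any turning. Of the members that differed by more than 1 with ethanol on the normal arrays, 7 of 8 in CM1, 4 of 4 in SM1 and 6 of 6 in W303-1A had the opposite sign on the swapped array. These values bear on the sign of the swapped arrays relative to the normal ones, least clearly in CM1, and not on which of them holds culture over pool. Under the assumption the swapped arrays were multiplied by -1, and every "rose", "fell", "higher" and "lower" rests on it. Without it, limma called 0 members over the 12 comparisons. The RNA came from whole cultures, so less of a transcript in every cell and fewer cells that make it cannot be told apart. Below, per-array values run from replicate 1 to replicate 3, "rose" and "fell" are used for an adjusted p under 0.05 over 5650 genes in limma, and a difference is given ± its standard error with 3 arrays per group. That error and the 95% intervals use 1 spread per gene, estimated by limma over all 18 arrays. They do not measure the spread of the groups compared.

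With ethanol, 6 of the 10 genes rose and 0 fell in CM1, where 3.88% of all genes rose and 1.73% fell. In SM1 4 members rose and 0 fell, against 2.83% and 1.26% of all genes. In W303-1A 4 members rose and 4 fell, against 10.2% and 13.6% of all genes. The 10 genes were chosen with earlier results of these data known, so their counts beside these shares are not a test. The median difference of the 10 genes was 1.59 in CM1, 0.64 in SM1 and 0.25 in W303-1A, beside -0.012, 0.00018 and 0.028 over all genes. PIR3 and TIP1 rose in each of the 3 strains. CWP1 and CWP2 rose in CM1 and in SM1 and fell in W303-1A, while CIS3 and CCW12 fell in W303-1A. With quantile normalization 4 members rose and 1 fell in SM1, and 4 rose and 2 fell in W303-1A. At an unadjusted p under 0.05, 0 members were lower in CM1 and 1, CCW12, was lower in SM1. Over all 5650 genes these counts were 548 and 406.

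**Figure D1:**
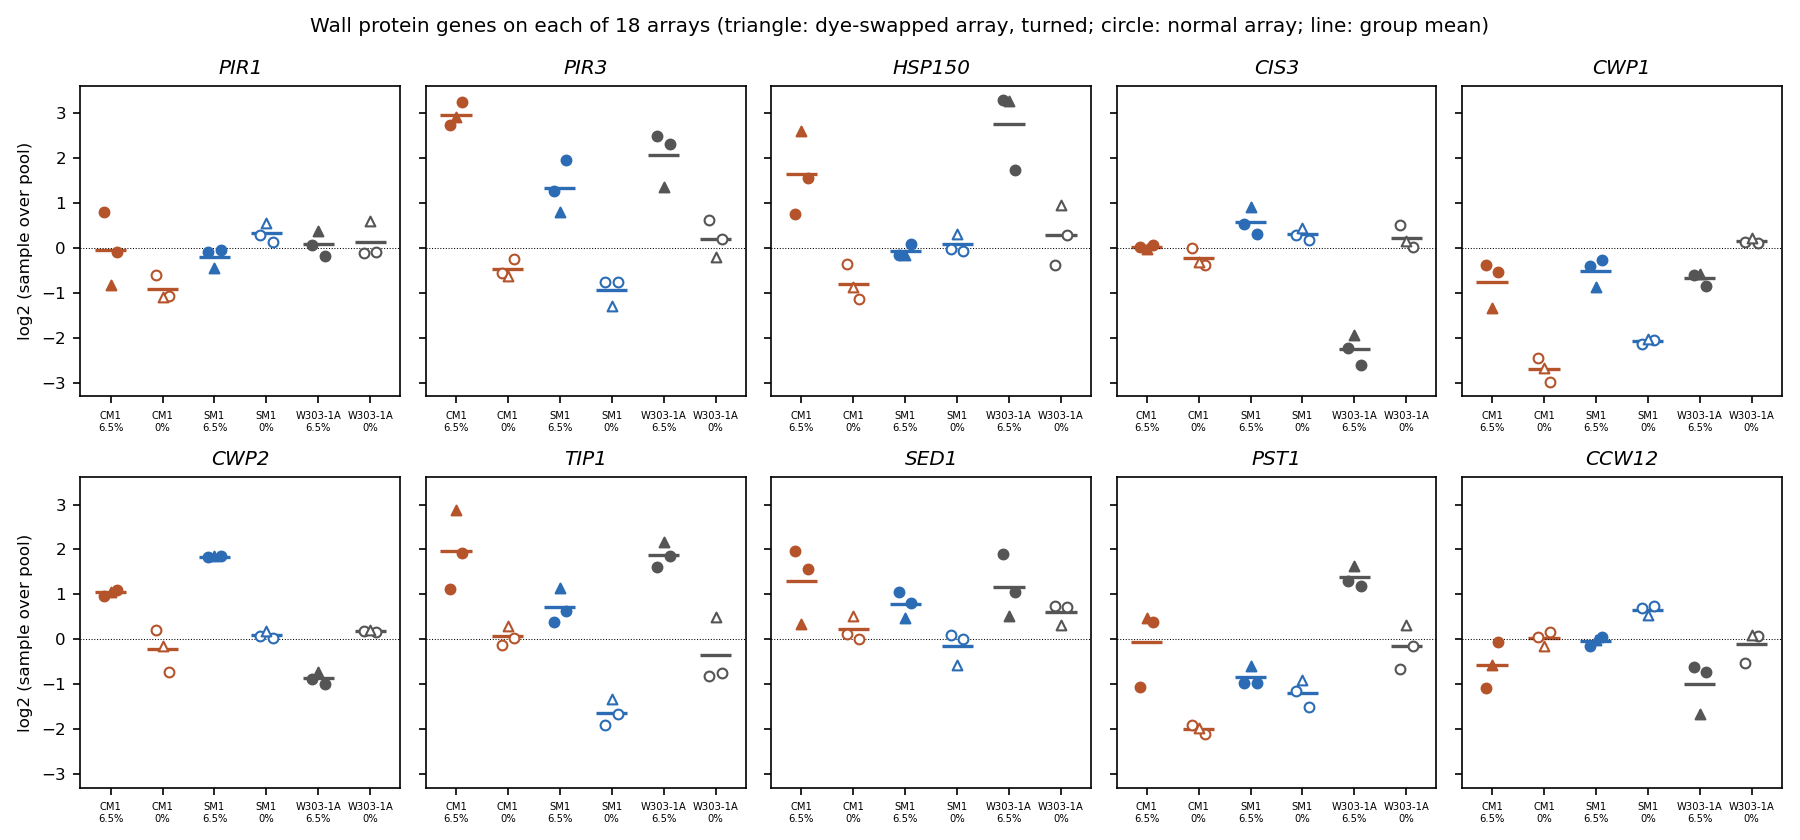
Log2 ratio of culture over pool (vertical axis) for each of the 10 genes on each of the 18 arrays, by group (horizontal axis), with dye-swapped arrays as triangles, normal arrays as circles, ethanol groups filled, and a line at each group's mean. PIR3 lies above all arrays without ethanol on every ethanol array, and CIS3 lies near -2 on the ethanol arrays of W303-1A alone.

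PIR3 had the largest rise of any member in CM1 and the third largest in W303-1A. The ratio was 2.90, 2.74 and 3.24 in CM1 with ethanol, against -0.63, -0.55 and -0.25 in CM1 without it. In SM1 it was 0.80, 1.25 and 1.95 with ethanol, against -1.30, -0.77 and -0.77 without. In W303-1A it was 1.36, 2.49 and 2.32 with ethanol, against -0.21, 0.62 and 0.19 without. The ethanol arrays were the higher ones in each strain and the groups did not overlap. The rise was 3.44 ± 0.26 in CM1, which is 10.8-fold (adjusted p = 1.59e-06), 2.28 ± 0.26 in SM1 (adjusted p = 9.54e-05) and 1.85 ± 0.26 in W303-1A (adjusted p = 0.00015).

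HSP150, a PIR gene also known for its induction by heat, gave a different order of strains. Its ratio was 2.60, 0.75 and 1.56 in CM1 with ethanol, against -0.88, -0.37 and -1.15 in CM1 without it. SM1 had -0.15, -0.17 and 0.10 with ethanol, against 0.32, -0.02 and -0.08 without. W303-1A had 3.26, 3.29 and 1.73 with ethanol, against 0.96, -0.39 and 0.28 without. The groups were apart in CM1 and in W303-1A, and in SM1 the arrays of both conditions lay close to the pool and overlapped. HSP150 rose by 2.44 ± 0.42 in CM1 (adjusted p = 0.00253) and by 2.48 ± 0.42 in W303-1A (adjusted p = 0.00068), 5.41-fold and 5.56-fold. In SM1 the difference was -0.15 with a 95% interval of -1.05 to 0.75 (adjusted p = 0.905).

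CIS3, another PIR gene and the neighbour of HSP150 on its chromosome, was the member with the largest fall in W303-1A. Its ratio was -0.02, 0.01 and 0.07 in CM1 with ethanol, against -0.32, -0.01 and -0.37 without. The SM1 arrays read 0.91, 0.54 and 0.30 with ethanol, against 0.44, 0.28 and 0.18 without. The W303-1A arrays read -1.93, -2.22 and -2.61 with ethanol, against 0.14, 0.50 and 0.02 without. The ethanol arrays of W303-1A were below all 15 others, and the groups overlapped within each mutant. The difference was 0.26 in CM1 (-0.22 to 0.73, adjusted p = 0.556) and 0.28 in SM1 (-0.19 to 0.76, adjusted p = 0.572). In W303-1A it was -2.47 ± 0.22, a 5.56-fold fall (adjusted p = 6.25e-06).

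PIR1, which lies next to PIR3 on its chromosome, was called in 0 of the 12 comparisons. Its ratio was -0.82, 0.81 and -0.10 in CM1 with ethanol, against -1.09, -0.61 and -1.08 without. The ethanol arrays of CM1 were spread widely, and 1 of them lay within the range of the arrays without ethanol. The difference was 0.89 with an interval of 0.15 to 1.63 (adjusted p = 0.159). In SM1 the ratio was -0.46, -0.10 and -0.05 with ethanol, against 0.55, 0.29 and 0.12 without. In W303-1A it was 0.37, 0.05 and -0.18 with ethanol, against 0.60, -0.12 and -0.10 without. The ethanol arrays were the lower ones in SM1, and the groups overlapped in W303-1A. The difference was -0.52 in SM1 (-1.26 to 0.22, adjusted p = 0.478) and -0.05 in W303-1A (-0.79 to 0.69, adjusted p = 0.945). Over the 6 groups the mean of PIR1 ran between -0.93 ± 0.28 (SD) in CM1 without ethanol and 0.32 ± 0.22 in SM1 without ethanol. The 4 PIR genes are related in sequence, and whether the probes of one read RNA of another was not tested, since probe sequences were not used here.

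Among the GPI genes, CWP1 started from the most unequal levels. Its product is a GPI mannoprotein found mainly at the birth scar. The ratio was -1.34, -0.39 and -0.54 in CM1 with ethanol, against -2.67, -2.46 and -3.00 without. SM1 had -0.86, -0.40 and -0.28 with ethanol, against -2.04, -2.15 and -2.06 without. W303-1A had -0.57, -0.60 and -0.85 with ethanol, against 0.22, 0.13 and 0.10 without. The 3 strains overlapped with ethanol and were fully apart without it, and within each strain the conditions did not overlap. CWP1 rose by 1.95 ± 0.25 in CM1 (adjusted p = 0.000199) and by 1.57 ± 0.25 in SM1 (adjusted p = 0.00176), 3.86-fold and 2.97-fold. It fell by 0.82 ± 0.25 in W303-1A (adjusted p = 0.0239), and this call was lost with quantile normalization, without W303-1A replicate 1 or 2 of the cultures without ethanol, and without replicate 2 or 3 of those with it. Over the 6 fits that left out 1 array the difference lay between -0.95 and -0.70.

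CWP2 lies next to CWP1 on its chromosome and encodes a major GPI mannoprotein of the wall. In 5 of 6 groups the SD of its 3 arrays was at most 0.13. The ratio was 1.05, 0.97 and 1.11 in CM1 with ethanol, against -0.15, 0.20 and -0.73 without. The SM1 arrays read 1.85, 1.82 and 1.86 with ethanol, against 0.19, 0.08 and 0.03 without. The W303-1A arrays read -0.72, -0.87 and -0.99 with ethanol, against 0.22, 0.17 and 0.16 without. The ethanol arrays were thus the higher ones in both mutants and the lower ones in the parent, and no groups overlapped within a strain. CWP2 rose by 1.27 ± 0.21 in CM1 (2.40-fold, adjusted p = 0.00198) and by 1.74 ± 0.21 in SM1 (3.34-fold, adjusted p = 0.000195). It fell by 1.05 ± 0.21 in W303-1A (2.06-fold, adjusted p = 0.0024).

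TIP1, a mannoprotein gene known for induction by cold and heat shock, was higher on all ethanol arrays than on the arrays without ethanol of the same strain. The ratio was 2.88, 1.13 and 1.92 in CM1 with ethanol, against 0.29, -0.12 and 0.03 without. In SM1 it was 1.13, 0.39 and 0.64 with ethanol, against -1.33, -1.91 and -1.67 without. In W303-1A it was 2.16, 1.61 and 1.85 with ethanol, against 0.50, -0.81 and -0.75 without. The SM1 arrays without ethanol were the lowest of all 18. The rises were 1.91 ± 0.27 in CM1, 2.36 ± 0.27 in SM1 and 2.23 ± 0.27 in W303-1A, with adjusted p of 0.000553, 9.97e-05 and 5.63e-05.

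PST1, whose transcript is a usual readout of the wall integrity pathway, had 0.47, -1.06 and 0.39 in CM1 with ethanol, against -1.98, -1.91 and -2.10 without. In SM1 the ratio was -0.60, -0.97 and -0.97 with ethanol, against -0.90, -1.15 and -1.51 without. W303-1A had 1.64, 1.31 and 1.19 with ethanol, against 0.32, -0.66 and -0.14 without. The groups were apart in CM1 and in W303-1A and overlapped in SM1. PST1 rose by 1.93 ± 0.31 in CM1 (adjusted p = 0.00129) and by 1.54 ± 0.31 in W303-1A (adjusted p = 0.00203). In SM1 the difference was 0.34 (-0.31 to 0.99, adjusted p = 0.629).

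CCW12, one of the most abundant wall mannoproteins, had a lower mean with ethanol in each strain. The ratio was -0.58, -1.09 and -0.06 in CM1 with ethanol, against -0.15, 0.05 and 0.16 without. SM1 had -0.01, -0.14 and 0.05 with ethanol, against 0.54, 0.70 and 0.74 without. The W303-1A arrays read -1.67, -0.62 and -0.73 with ethanol, against 0.10, -0.52 and 0.08 without. The groups were apart in SM1 and in W303-1A, by little in W303-1A, and overlapped in CM1. The difference was -0.60 in CM1 (-1.23 to 0.03, adjusted p = 0.265) and -0.70 in SM1 (-1.32 to -0.07, adjusted p = 0.221), and it passed the test in W303-1A at -0.89 ± 0.29 (adjusted p = 0.0382). The W303-1A call was kept in 3 of 9 other settings and lost without W303-1A replicate 1 or 3, with or without ethanol, where the difference lay between -1.14 and -0.57 over the 6 fits.

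SED1, which encodes a GPI mannoprotein that is abundant in stationary phase, was called in 0 comparisons. The ratio was 0.34, 1.97 and 1.57 in CM1 with ethanol, against 0.53, 0.13 and 0.00 without. The SM1 arrays read 0.48, 1.06 and 0.81 with ethanol, against -0.56, 0.11 and 0.01 without. In W303-1A it was 0.51, 1.91 and 1.04 with ethanol, against 0.33, 0.75 and 0.72 without. The swapped array was the lowest of the 3 in each ethanol group, and the groups were apart in SM1 alone. The differences were 1.08 in CM1 (0.38 to 1.77, adjusted p = 0.0669), 0.93 in SM1 (0.24 to 1.63, adjusted p = 0.138) and 0.55 in W303-1A (-0.14 to 1.25, adjusted p = 0.243). The estimated dye effect of SED1, normal minus swapped arrays, was 0.57. It was -0.75 for TIP1, -0.56 for HSP150, 0.55 for PIR3 and -0.46 for PST1, and at most 0.18 in size for the other 5 members, beside a median size of 0.51 over all genes. Each group held 1 swapped array, so a dye effect of equal size in all groups falls out of their differences. Whether the size was equal was not tested. The ethanol difference of SED1 on the swapped and on the normal arrays was -0.18 and 1.71 in CM1. It was 1.04 and 0.88 in SM1, and 0.18 and 0.74 in W303-1A.

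**Figure D2:**
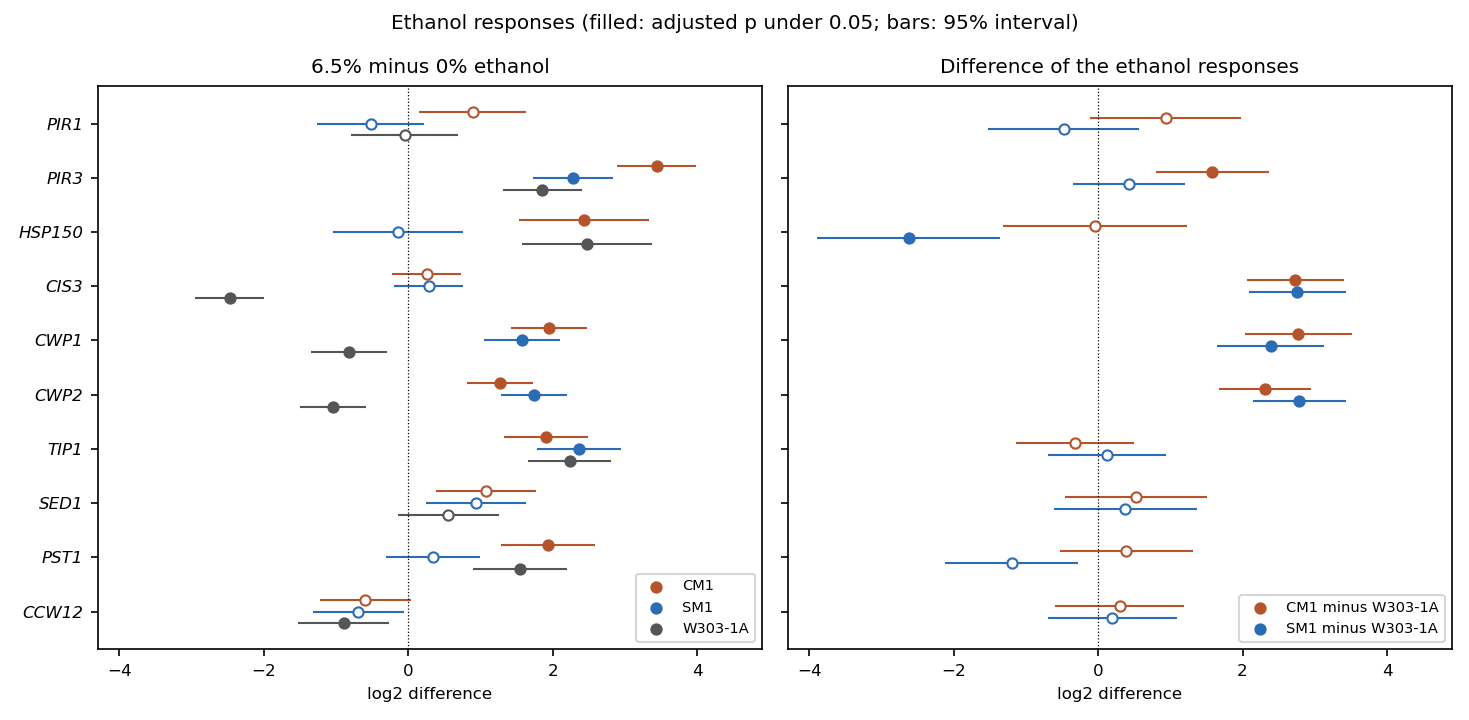
Log2 difference with ethanol against without (horizontal axis) for the 10 genes in CM1, SM1 and W303-1A (left), and the differences of these responses between each mutant and W303-1A (right), with 95% intervals from the limma fit and filled points for an adjusted p under 0.05. CWP1 and CWP2 lie right of 0 in both mutants and left of 0 in W303-1A, and CIS3 lies at -2.47 in W303-1A and near 0 in the mutants.

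Of the 6 rises in CM1, PIR3 alone stayed called in a fit to the 6 arrays of CM1. In that fit 19 of 5650 genes were called in all, against 317 in the fit to 18 arrays.

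With ethanol, 3 members were higher and 1 lower in CM1 than in W303-1A, beside 6.96% and 5.29% of all genes. CIS3 was higher by 2.28 ± 0.22 (4.85-fold, adjusted p = 2.22e-05) and CWP2 by 1.90 ± 0.21 (3.74-fold, adjusted p = 7.46e-05). PST1 was lower, at -1.45 ± 0.31 (2.72-fold, adjusted p = 0.00751), a call lost with quantile normalization and with only the groups compared. PIR3 was higher by 0.90 ± 0.26 (adjusted p = 0.0336), a call kept in 2 of 9 other settings and lost without replicate 1 or 3 of either group (0.71 to 1.12). CWP1 differed by -0.09 between these groups, with an interval of -0.61 to 0.44. With quantile normalization 2 members were higher and 0 lower.

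In SM1 with ethanol, 3 members were higher than in W303-1A with ethanol and 3 lower, beside 10.3% and 7.19% of all genes. CIS3 was higher by 2.84 ± 0.22 (7.16-fold) and CWP2 by 2.70 ± 0.21 (6.52-fold), each with an adjusted p of 5.02e-06. HSP150 was lower, at -2.83 ± 0.42 (7.13-fold, adjusted p = 0.000445), as were PST1 at -2.23 ± 0.31 (4.68-fold, adjusted p = 0.000269) and TIP1 at -1.16 ± 0.27 (2.23-fold, adjusted p = 0.00932). The TIP1 call was lost with quantile normalization and with no dye term. CCW12 was higher by 0.97 ± 0.29 (adjusted p = 0.0342), a call kept in 3 of 9 other settings and lost without any 1 of the 6 arrays but W303-1A replicate 2 (0.65 to 1.14). CWP1 differed by 0.16, with an interval of -0.36 to 0.68. The comparisons of CM1 and of SM1 share the W303-1A arrays.

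Between the mutants with ethanol, 3 members were higher in CM1 and 0 lower, beside 1.27% and 1.17% of all genes. PIR3 was higher by 1.63 ± 0.26 (3.09-fold, adjusted p = 0.00435), HSP150 by 1.71 ± 0.42 (3.27-fold, adjusted p = 0.0456) and TIP1 by 1.25 ± 0.27 (2.38-fold, adjusted p = 0.0275). The arrays of TIP1 overlapped between these groups. The HSP150 and TIP1 calls were lost without any 1 of the 6 arrays but CM1 replicate 2 (1.36 to 2.07 and 1.01 to 1.57). All 3 calls were lost with quantile normalization, with no dye term and with only the groups compared. The HSP150 call was also lost with a replicate block, with array weights and without the swapped arrays, and the TIP1 call without the swapped arrays. Of 9 other settings, the HSP150 call was kept in 2, the TIP1 call in 4 and the PIR3 call in 5. Without adjustment, at p under 0.05, 2 members were lower in CM1, CWP2 at -0.80 (-1.25 to -0.35) and CIS3 at -0.56 (-1.04 to -0.08). At that threshold 601 of all 5650 genes were lower in CM1.

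Without ethanol, the members called against W303-1A were all lower in the mutants. In CM1 2 members were lower and 0 higher, against 1.12% and 0.106% of all genes. They were CWP1, at -2.86 ± 0.25 or 7.25-fold (adjusted p = 1.13e-05), and PST1, at -1.84 ± 0.31 or 3.57-fold (adjusted p = 0.00395), a call lost without the swapped arrays. In SM1 3 members were lower and 0 higher, against 1.56% and 0.177% of all genes. CWP1 differed by -2.23 ± 0.25 (adjusted p = 0.000209), TIP1 by -1.28 ± 0.27 (adjusted p = 0.0268) and PIR3 by -1.15 ± 0.26 (adjusted p = 0.0363). The PIR3 call was lost without any 1 of the 6 arrays (-1.25 to -1.02) and the TIP1 call without any of them but W303-1A replicate 2 (-1.40 to -1.07). Of 9 other settings, the PIR3 call was kept in 4, lost with a replicate block among others, and the TIP1 call in 5. At an unadjusted p under 0.05, 0 members were higher in CM1 and 1, CCW12 at 0.77 (0.14 to 1.40), was higher in SM1. Over all 5650 genes these counts were 238 and 242. The median of the 10 genes was -0.57 in CM1 and -0.48 in SM1, beside 0.0006 and -0.0045 over all genes. With quantile normalization 0 were higher and 4 lower in CM1, and 1 higher and 4 lower in SM1. These comparisons and the ethanol comparison of W303-1A rest on the same 3 arrays of W303-1A without ethanol.

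Between the mutants without ethanol, TIP1 was the 1 member called, higher in CM1 by 1.71 ± 0.27 (3.26-fold, adjusted p = 0.00638), where 0.814% of all genes were higher and 0.195% lower. The call was lost without SM1 replicate 1 or CM1 replicate 3 (1.59 to 1.87 over the 6 fits), without the dye term and without the swapped arrays. With quantile normalization 1 member was higher and 2 lower. Although 0 members were called lower, 5 were lower at an unadjusted p under 0.05, beside 124 of all 5650 genes. These 5 members were PIR1 at -1.25, PST1 at -0.81, CCW12 at -0.64, CWP1 at -0.63 and CIS3 at -0.53.

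**Figure D3:**
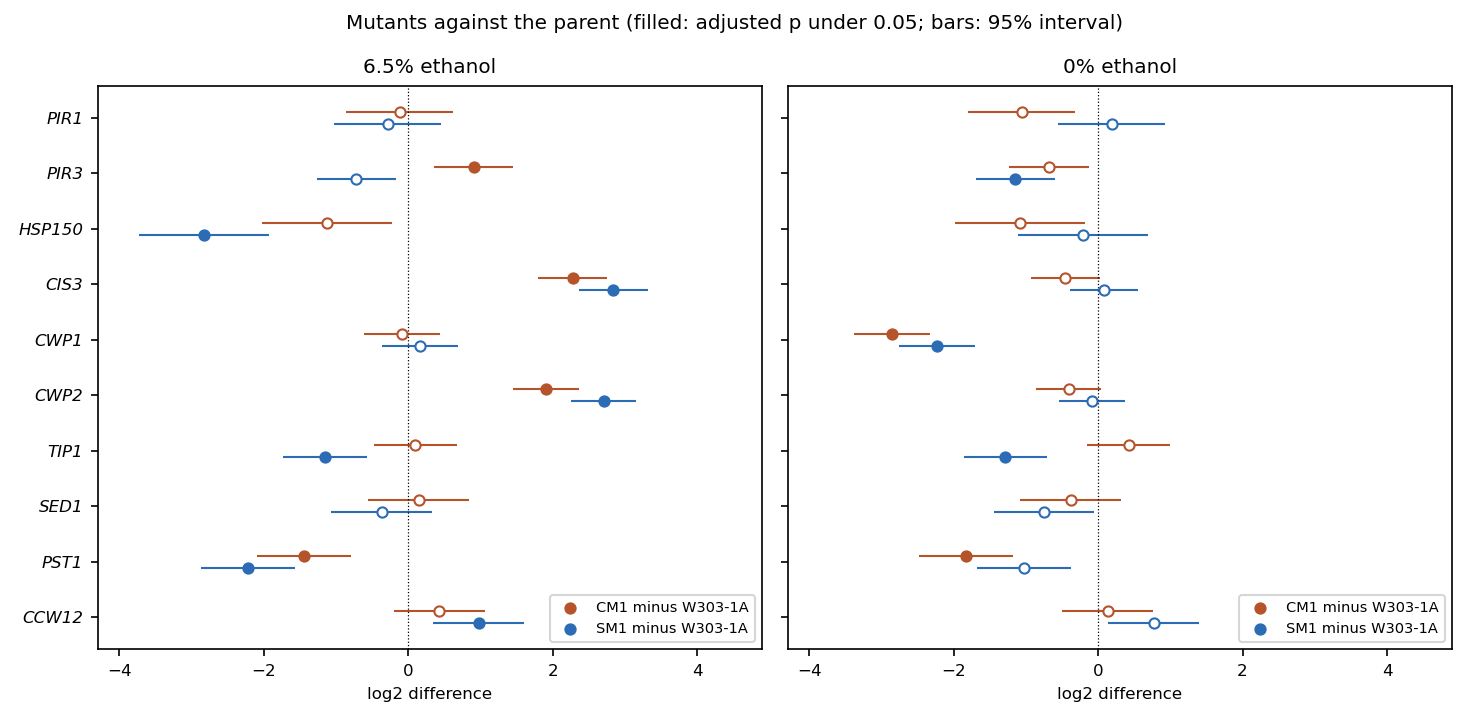
Log2 difference between strains (horizontal axis) for the 10 genes in CM1 and SM1 against W303-1A, with ethanol (left) and without (right), with 95% intervals from the limma fit and filled points for an adjusted p under 0.05. CIS3 and CWP2 lie right of 0 in both mutants with ethanol, and CWP1 lies near 0 with ethanol and at -2.86 and -2.23 without it.

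The responses to ethanol were then compared between strains as differences of differences. In CM1 4 members had a higher response than in W303-1A and 0 a lower one, beside 3.45% and 1.2% of all genes. CWP1 differed by 2.77 ± 0.35 (adjusted p = 0.000533), CIS3 by 2.73 ± 0.32 (adjusted p = 0.000291) and CWP2 by 2.31 ± 0.30 (adjusted p = 0.000765). These 3 calls were kept without each of the 12 arrays of the groups compared in turn. PIR3 differed by 1.58 ± 0.36 (adjusted p = 0.0221), a call kept in 3 of 9 other settings and lost without replicate 2 of W303-1A without ethanol, replicate 1 of W303-1A with ethanol, or replicate 2 or 3 of CM1 without ethanol (1.39 to 1.79 over 12 fits). Without adjustment, at p under 0.05, 0 members had a lower response, beside 522 of all 5650 genes.

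In SM1 3 members had a higher response than in W303-1A and 1 a lower one, beside 4.55% and 1.82% of all genes. CWP2 differed by 2.79 ± 0.30 (adjusted p = 0.000184), CIS3 by 2.76 ± 0.32 (adjusted p = 0.000199) and CWP1 by 2.39 ± 0.35 (adjusted p = 0.00191). HSP150 differed by -2.63 ± 0.60 (adjusted p = 0.0181). The HSP150 call was kept in 5 of 9 other settings and lost without replicate 2 of W303-1A without ethanol or replicate 2 or 3 of SM1 without ethanol (-3.07 to -2.25 over 12 fits). At an unadjusted p under 0.05 in limma, 3 members had a higher and 2 a lower response, beside 809 and 496 of all 5650 genes. The 2 were HSP150 and PST1, the latter at -1.20 (-2.12 to -0.28, adjusted p = 0.111). For CIS3 the difference in response came with a fall in W303-1A and no called change in either mutant. For CWP1 it came with levels that overlapped in the 3 strains with ethanol and were lower in both mutants without it.

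Between CM1 and SM1, 0 members differed in response in limma, beside 0.106% of all genes higher and 0.23% lower. At an unadjusted p under 0.05, 4 members had a higher response in CM1, beside 276 of all 5650 genes. These 4 members were HSP150 at 2.59 (1.31 to 3.86, adjusted p = 0.102), PST1 at 1.59 (0.67 to 2.51, adjusted p = 0.193), PIR1 at 1.41 (0.36 to 2.46, adjusted p = 0.334) and PIR3 at 1.16 (0.38 to 1.94, adjusted p = 0.281). The intervals of CIS3 (-0.70 to 0.65), CWP1 (-0.36 to 1.12) and CWP2 (-1.12 to 0.17) all held 0.

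The 10 genes did not vary as 1 block. After removal of the mean of each dye orientation, the 45 pairs of members had Pearson correlations over the 18 arrays between -0.73 and 0.92, with a median of 0.20, and 28 were above 0. PIR3 and TIP1 were the most alike at 0.92, followed by HSP150 and PST1 at 0.91, and TIP1 and CCW12 were at -0.73. CIS3 and CWP2 were at 0.73. Of the pairs, 3 are neighbours on a chromosome, PIR1 with PIR3, HSP150 with CIS3, and CWP1 with CWP2, and their probes carry adjacent numbers. Their correlations were 0.05, -0.69 and 0.31 in that order. The 18 arrays share the pool, and 3 arrays of a group share a condition, so these values describe the arrays and are given with no p.

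**Figure D4:**
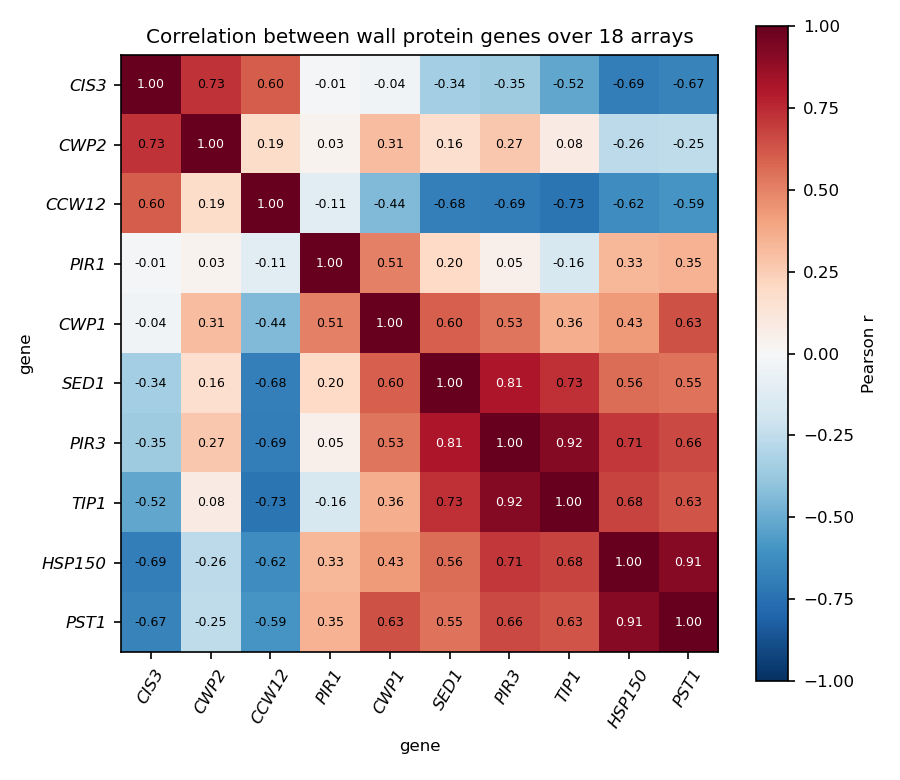
Pearson correlation of each pair of the 10 genes over 18 arrays, after subtraction of the mean of each dye orientation (colour scale and printed value). PIR3 with TIP1 and HSP150 with PST1 are the highest pairs, and TIP1 with CCW12 is the lowest.

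By the same measure, the genes most like PIR3 among all 5650 were NNR1 at 0.94, YAF9 at 0.93 and HSP60, the mitochondrial chaperonin, at 0.93. For TIP1 they were HSP78, a mitochondrial chaperone, at 0.94, PIR3 itself and YCL019W at 0.91. PST1 was closest to ENO1 and ENO2, the enolases, at 0.94 and 0.93, and to SHY1 at 0.93. HSP150 was closest to ACT1, actin, at 0.92, to SDS24 at 0.91 and to PST1. CIS3 was closest to ADK1, adenylate kinase, at 0.94, to RPS17A, a ribosomal protein gene, at 0.94, and to MTR4 at 0.93. CWP2 was closest to PUT3 at 0.93, YGL039W at 0.91 and PSH1 at 0.87, and CWP1 to PRC1 at 0.89, BMH1 at 0.88 and TDH3 at 0.88. CCW12 was closest to YFL064C at 0.88, and to HYP2 and RPL41A at 0.87. PIR1 and SED1 had the least close companions, at 0.81 for MMM1 and 0.86 for CHO1. Each was picked as the highest among all genes.

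Other genes of the wall were counted in 4 lists. Of 30 other wall mannoprotein genes, 5 rose and 1 fell with ethanol in CM1, 3 rose and 0 fell in SM1, and 1 rose and 9 fell in W303-1A. Their median difference was 0.51, 0.089 and -0.23 in these strains, and at an unadjusted p under 0.05, 2 were lower in SM1. At that threshold 406 of all 5650 genes were lower in SM1. The shares and medians of all genes given above serve as background for these lists. YGP1, for a secreted glycoprotein, rose by 3.69 ± 0.22 in CM1 and 2.11 ± 0.22 in SM1. These responses were higher than that of W303-1A by 4.37 ± 0.31 in CM1 and 2.79 ± 0.31 in SM1. SPI1, a GPI gene known for induction by weak acids, rose by 2.26 ± 0.22 in CM1, 1.23 ± 0.22 in SM1 and 1.13 ± 0.22 in W303-1A. NCA3, of the SUN family, rose by 4.89 ± 0.79 in SM1. SIM1, of the same family, fell by 1.83 ± 0.37 in W303-1A. Without ethanol, 3 of the 30 were lower and 0 higher in CM1 than in W303-1A, with YGP1 at -2.78 ± 0.22, and 1 was lower and 0 higher in SM1, YGP1 at -2.20 ± 0.22.

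Of 20 genes that put mannose on such proteins or process them, 0 passed with ethanol in CM1 and 0 in SM1, while 0 rose and 9 fell in W303-1A. The median difference of the 20 was -0.052 in CM1, -0.21 in SM1 and -0.70 in W303-1A. Without adjustment, at p under 0.05, 2 were higher and 2 lower in CM1, 0 higher and 2 lower in SM1, and 1 higher and 10 lower in W303-1A. Over all 5650 genes these counts were 631 and 548 in CM1, 605 and 406 in SM1, and 946 and 1096 in W303-1A. Among the 9 were VAN1 at -2.16 ± 0.26 and MNN9 at -2.01 ± 0.27, both of the Golgi mannan polymerase, and PMT4, a protein O-mannosyltransferase, at -1.71 ± 0.23. With ethanol, 6 were higher and 0 lower in CM1 than in W303-1A and likewise 6 and 0 in SM1, among them MNN9 at 1.46 ± 0.27 and 1.53 ± 0.27. The difference in response passed for 3 of the 20 in CM1 and 3 in SM1 against W303-1A, with MNN9 at 2.35 ± 0.38 and 2.52 ± 0.38.

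Of 18 genes for glucan and chitin enzymes, 1 rose and 0 fell with ethanol in CM1, 0 rose and 1 fell in SM1, and 1 rose and 8 fell in W303-1A, with medians of -0.073, 0.096 and -0.46. In W303-1A GAS1, a glucanosyltransferase of the wall, fell by 1.87 ± 0.29 and FKS1, a catalytic subunit of glucan synthase, by 1.28 ± 0.22. The gene that rose in CM1 was CRH1, at 0.94 ± 0.22, and the gene that fell in SM1 was UTR2, at -1.85 ± 0.36, both for enzymes that join chitin to glucan. Of 19 genes for wall integrity signalling and its known targets, 0 rose and 0 fell in CM1, 0 rose and 1 fell in SM1, and 0 rose and 3 fell in W303-1A, with medians of -0.0093, -0.30 and -0.015. At an unadjusted p under 0.05, 3 of the 19 were higher and 5 lower in CM1, beside 631 and 548 of all 5650 genes. The 3 that fell in W303-1A were WSC2 at -1.55 ± 0.34, NCW2 at -1.46 ± 0.35 and YPS1 at -0.78 ± 0.21, and NCW2 was also the 1 gene that fell in SM1, at -1.53 ± 0.35. PIR3, HSP150, CWP1 and PST1, named above as genes that this pathway raises, were counted with the members and not with these 19.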

How the data were processed

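RNA of 18 yeast cultures was measured on 18 2-colour arrays. The deposited values are log ratios of the 2 channels, used here as log2 values. Scanner, background correction, normalization, log base, centring and direction were not given in the sources used here, and another base would multiply every value by 1 factor. The table held 6368 probes with 0 missing values and column medians between -0.0041 and 0.0305. Of the probes, 5673 carried 1 symbol and 695 none. For 23 genes the mean of 2 probes was taken, so 5650 genes were tested. The number of arrays limits the precision, since intensities were not used. The 6 swapped arrays were turned, on the assumption that all columns hold red over green. limma 3.58.1 under R 4.3.3 fitted a mean for each of 6 groups and a dye term (lmFit, eBayes), with Benjamini-Hochberg adjustment over 5650 genes for each of 12 comparisons. Alternatives were a block for the replicate number, no dye term, quantile normalization, centring, unturned arrays, array weights, removal of the trend along the probe number, no swapped arrays, fewer groups, and each array of the groups compared left out in turn.

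The members and the 4 lists were chosen with earlier results of these data known. Named were all 10 members, up to 3 genes of each list with the smallest p among those called in a comparison, and the 3 genes most like each member. Part of these are given. No build is named for the probe annotation, so no coordinates or sequences are given.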

Additional observations from a re-analysis of the deposited data

Results flagged for a closer look

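The response to ethanol differed between a mutant and W303-1A in 8 cases, each by a test of the difference itself in limma (adjusted p under 0.05 over 5650 genes). For CM1 minus W303-1A the differences on the log2 scale were 2.77 for CWP1, 2.73 for CIS3, 2.31 for CWP2 and 1.58 for PIR3. For SM1 minus W303-1A they were 2.79 for CWP2, 2.76 for CIS3, 2.39 for CWP1 and -2.63 for HSP150. Both sets of values rest on the same 6 arrays of W303-1A. The PIR3 difference was kept in 3 of 9 other settings and the HSP150 difference in 5 of 9, and the other 6 were lost with unturned arrays alone. The arrays of W303-1A with ethanol differed in weight, at 0.242, 1.44 and 1.42 for replicates 1 to 3 in limma's array weights. In the ethanol groups of the mutants the weights were 0.291, 0.216 and 1.12 in CM1 and 0.285, 1.05 and 1.13 in SM1. In the groups without ethanol they were 2.53, 1.44 and 2.24 in CM1, 1.56, 2.93 and 3.42 in SM1 and 0.873, 0.495 and 1.54 in W303-1A.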

How the results depend on the processing

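Of 45 member calls, 25 were kept under every alternative except unturned arrays, each array of the groups compared left out in turn included. Calls without an array of another group were not examined. With swapped arrays not turned, 0 members were called in each of the 12 comparisons, with 0 to 18 genes called in all. Of the 45 called differences, 4 changed sign. They were CCW12 with ethanol in W303-1A (0.28), PIR3 in CM1 against W303-1A with ethanol (-0.12), CCW12 in SM1 against W303-1A with ethanol (-0.13) and HSP150 in CM1 against SM1 with ethanol (-0.12). Differences that were not called also changed sign and were not counted. An example is PIR1 with ethanol in SM1, at 0.15 in place of -0.52. The counts of members called that moved by over 1.5 times were these. For ethanol in CM1, 1 member in place of 6 was called with only the groups compared. For CM1 against W303-1A without ethanol, in place of 2, the count was 4 with quantile normalization, 4 with array weights and 1 without the dye-swapped arrays. For SM1 against W303-1A without ethanol, in place of 3, it was 5 with quantile normalization, 5 with array weights, and 1 each with no dye term, without the dye-swapped arrays and with only the groups compared. For CM1 against SM1 without ethanol, in place of 1, it was 3 with quantile normalization, 6 with array weights, 2 with only the groups compared, and 0 with no dye term and without the dye-swapped arrays. For CM1 against W303-1A with ethanol, in place of 4, it was 2 with quantile normalization and 2 with only the groups compared. For CM1 against SM1 with ethanol, in place of 3, it was 0 with quantile normalization, with no dye term and with only the groups compared, and 1 without the dye-swapped arrays. For the response of CM1 minus that of SM1, in place of 0, it was 2 with array weights. With 1 array of the groups compared left out, the count ran between 1 and 2 for SM1 against W303-1A without ethanol, 0 and 1 for CM1 against SM1 without ethanol, 1 and 4 for CM1 against SM1 with ethanol, and 0 and 2 for the response of CM1 minus that of SM1. Replicate 1 is the swapped array in every group, so the replicate number carries the dye. Deviations of same-numbered arrays from their group means correlated at medians of 0.65, 0.36 and 0.37 for numbers 1, 2 and 3. With the dye means removed too, they ran between -0.36 and 0.11 for number 2 and between -0.18 and 0.23 for number 3, and for number 1 that removal leaves nothing to read. For number 1, pairing by number and dye therefore cannot be told apart. Numbers 2 and 3 are both normal arrays, and their medians with the dye means removed were -0.060 and -0.10. With the replicate number as a block in place of the dye term, the PIR3 call in SM1 against W303-1A without ethanol and the HSP150 call in CM1 against SM1 with ethanol were lost, which left 2 members called in each, and no other member call was lost. Counts over all genes moved more, with turned arrays and apart from fits with 1 array left out. They were 19 to 602 for ethanol in CM1 (317 as reported), 112 to 799 in SM1 (231) and 791 to 1795 in W303-1A (1349). With ethanol they were 40 to 744 for CM1 against W303-1A (692), 511 to 1362 for SM1 against W303-1A (989) and 0 to 272 for CM1 against SM1 (138). Without ethanol they were 42 to 360 (69), 34 to 483 (98) and 0 to 273 (57) in the same order. For the responses they were 74 to 518 for CM1 minus W303-1A (263), 106 to 870 for SM1 minus W303-1A (360) and 5 to 75 for CM1 minus SM1 (19). The causes were not tested.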
